A study of Homo sapiens with 5 samples.

Results

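Collagens are the main structural proteins of the extracellular matrix. Each is a trimer of alpha chains wound into a triple helix, and each chain has its own gene, named COL, a type number, A and a chain number. The collagen genes described here were every probe whose platform gene symbol has exactly that form. They came to 73 of the 47299 probes on the array and stood for 43 of 20041 named genes. By textbook structure, 11 of the 43 genes encode fibrillar chains, which form the banded fibrils of connective tissue, 6 encode type IV chains, which form the network of basement membranes, and 5 encode type VI chains, which form beaded microfibrils around cells. The other 21 encode fibril-associated, transmembrane, short-chain, multiplexin and anchoring-fibril collagens, and COL26A1 and COL28A1. Fibroblasts and other mesenchymal cells are known as the main makers of fibrillar and type VI collagen in the developing heart and liver, while epithelial, endothelial and muscle cells all lay down type IV collagen on their basal side.

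The arrays measured total RNA of H1, an established line of human embryonic stem cells, on day 10 of a differentiation towards mesoderm. All 5 cultures were started with CHIR99021, an inhibitor of GSK3 that switches on canonical WNT signaling, on a matrigel coating. Between day 2 and day 5, separate cultures received IWP2, which blocks WNT secretion through Porcupine, LY294002, an inhibitor of phosphoinositide 3-kinase (PI3K), insulin, which activates PI3K through its receptor, or IWP2 together with LY294002, and the control received the basal differentiation medium alone. Each condition has 1 array, so no difference could be set against a spread between replicates, and no difference was tested. An error of the control array would enter all 4 comparisons with the control. The cells are labelled by their line of origin as embryonic stem cells, and the pluripotency genes POU5F1 and NANOG were not detected on any array, while SOX2 was detected only with both inhibitors (5.94 on the log2 scale).

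Values are background-corrected, quantile-normalized intensities on the log2 scale, and a gene was called detected on an array where the detection p-value of its probe lay under 0.01. Of all named genes, between 8442 (LY294002) and 9389 (IWP2) were detected per array, and the LY294002 array had the lowest median intensity (106.9, against 118.25 with insulin, which had the highest). A log2 difference of 1 or more in size between 2 arrays that both detected a gene is called a 2-fold difference. Where only 1 of the 2 arrays detected it, the fold is a bound and is written as "at least". A bulk array cannot tell fewer cells of a type from less RNA per cell. Probes differ in how brightly they read the same amount of RNA, so each gene is compared with itself across arrays.

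Of the 43 collagen genes, 28 were detected on at least 1 array (65.1%, against 54.8% of all named genes), and 16 on all 5. The control and IWP2 arrays each detected 25, the insulin array 23, the array with both inhibitors 21 and the LY294002 array 20. By class, 8 of 11 fibrillar, 4 of 6 basement membrane, 3 of 5 microfibrillar and 13 of 21 other genes were detected somewhere. The 15 genes detected nowhere were COL5A3, COL24A1 and COL27A1 (fibrillar), COL4A3 and COL4A4 (basement membrane), COL6A5 and COL6A6 (microfibrillar), and COL8A1, COL10A1, COL14A1, COL15A1, COL19A1, COL20A1, COL25A1 and COL28A1. Their transcripts may lie below what the probes can measure. Of the probes, 35 of 73 were detected on at least 1 array, and the remaining 38 on none.

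Collagen genes differed widely between the arrays. Over the 16 members detected on all 5 arrays, the median span from the dimmest to the brightest array was 1.95 on the log2 scale, against 1.03 over the 7110 genes detected on all 5. In 13 of the 16 the span was above 1.43, the 75th percentile of those genes. COL3A1, COL1A2 and COL1A1 had spans of 4.43, 4.49 and 4.69. Of the 28 detected members, 12 were brightest on the insulin array and 7 on the control. Over all 10976 detected genes, 25.2% were brightest with insulin and 17.2% on the control. The dimmest array has no order among readings that were not detected, so it was counted over the 19 members detected on at least 4 arrays. Of these, 8 were dimmest with both inhibitors, against 23.6% of all genes detected on at least 4 arrays. The 8 included 5 of 6 fibrillar genes and both type VI genes so detected, COL6A1 and COL6A3, while 3 of 4 type IV genes were dimmest with LY294002 alone. Those were the only 3 of the 19 members dimmest there, against 21.6% of all genes detected on at least 4 arrays.

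**Figure D1:**
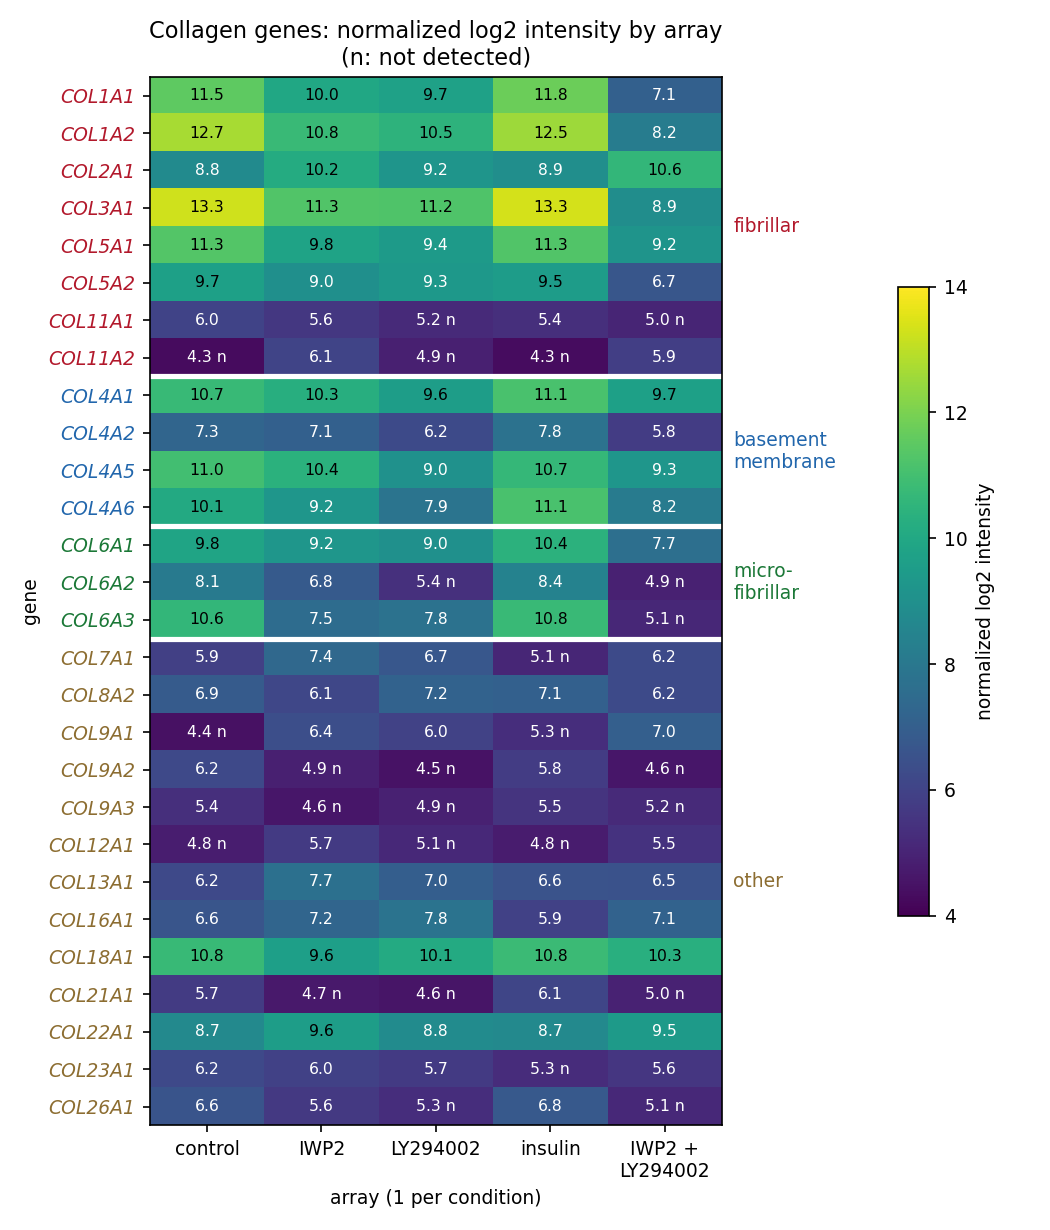
Normalized log2 intensity (colour and printed value) of the 28 detected collagen genes (vertical axis, by class) on the 5 arrays (horizontal axis, 1 array per condition), with n where the probe was not detected. Most fibrillar and microfibrillar genes read highest on the control and insulin arrays and lowest with both inhibitors, whereas COL2A1 read highest with both inhibitors (10.63).

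Counted against the control, more collagen genes read at least 2-fold lower than higher on each inhibitor array. With IWP2, 7 of the 22 members detected on both arrays were lower (31.8%, against 7.70% of all genes) and 3 were higher (13.6%, against 6.94%). With LY294002, 9 of 19 were lower (47.4%, against 10.2%) and 1 was higher (5.3%, against 9.02%). With both inhibitors, 10 of 18 were lower (55.6%, against 10.9%) and 1 was higher (5.6%, against 12.0%). With insulin, 1 of 23 was higher (4.3%, against 1.71%) and 0 were lower (against 1.88%), and 16 of the 23 read higher by any amount (against 4315 of 8680 genes). The median log2 difference over the 28 members was -0.64 with IWP2, -0.80 with LY294002, 0.11 with insulin and -1.02 with both, and with bounds in place of undetected readings -0.53, -0.58, 0.06 and -0.69. The medians over all detected genes were 0.00, -0.06, 0.00 and -0.02. Counting bounds as well, over members detected on either array, 7 of 28 were lower and 4 higher with IWP2 (background 7.75% and 6.87%), and 11 of 26 lower and 1 higher with LY294002 (10.5% and 8.26%). With insulin 0 of 25 were lower and 1 higher (1.77% and 1.62%), and with both inhibitors 13 of 28 were lower and 2 higher (11.9% and 11.1%). Some alternative processing put 8 of these differences under 2-fold: COL6A2, COL7A1 and COL13A1 with IWP2, COL4A2 and COL16A1 with LY294002, COL4A6 with insulin, and COL4A1 and COL4A2 with both. These counts and medians cover only members that passed the detection filter, and a member detected only where it is bright had to differ.

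**Figure D2:**
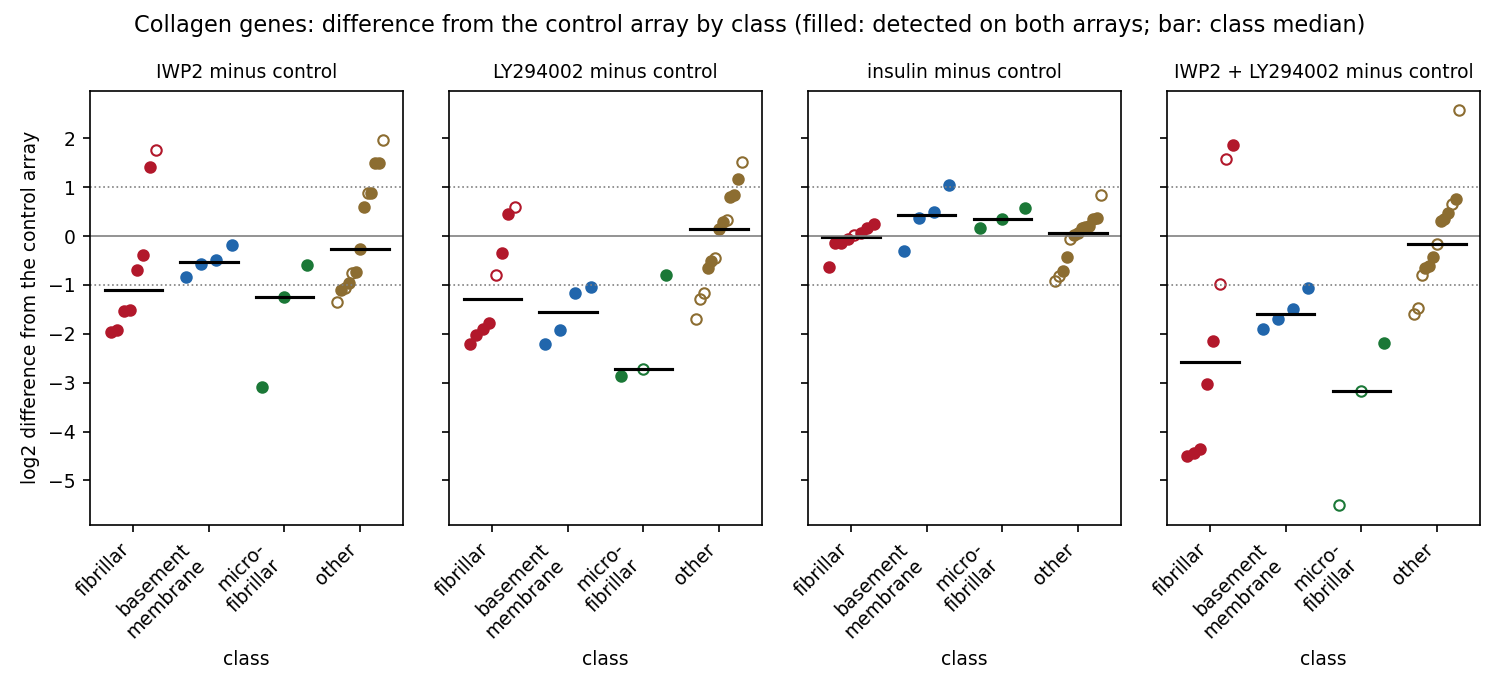
Log2 difference from the control array (vertical axis) of each detected collagen gene by class (horizontal axis), 1 panel per treatment, with a filled point where the gene was detected on both arrays, an open point otherwise, and a bar at the class median. The type I, III and V genes and COL6A3 lie far below 0 with both inhibitors, the 4 type IV genes lie between -1.06 and -1.90 there, and the insulin points lie between -0.93 and 1.04.

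Markers of several cell types also differed between the arrays, and their part in the collagen differences was not tested. Of 15 fibroblast and mesenchyme markers, 12 were detected on the control, 10 with insulin, 9 with LY294002, 8 with IWP2 and 6 with both. Their summed normalized intensity, above the offset, was 10168 on the control, 14411 with insulin, 5724 with IWP2, 4861 with LY294002 and 5361 with both. VIM, an intermediate filament gene that many cell types express, made up much of that sum, and without VIM, singled out after its values were seen, the sums were 5012, 6485, 2249, 1754 and 1144. The median log2 level of the 12 markers detected somewhere was 7.74, 7.89, 6.31, 6.54 and 5.54 in that order. PDGFRB and THY1, markers of mural cells and fibroblasts, read 9.02 and 8.01 on the control and were not detected with both inhibitors, while PDGFRA, another mesenchymal receptor gene, still was (8.28). The 13 measured endoderm and liver markers summed to 85977 on the control, 99132 with insulin, 27453 with IWP2, 6171 with LY294002 and 1740 with both. The sum of the 14 measured cardiomyocyte markers ran the other way, at 17252, 10893, 66161, 54819 and 64219 in that order. Bright genes weigh most in these sums, and single members departed from them. NPPB was higher with insulin (1.22) and differed by -0.03 with both, NPPA was not detected with LY294002, and MYL2 was detected nowhere. Among the endoderm and liver markers, FOXA1 was higher with IWP2 (0.495), and 4 of the 12 detected genes read lower with insulin. Of 8 epicardium markers 7 were detected on the control, 6 with insulin, 4 each with IWP2 and LY294002 and 1 with both, and of 11 endothelium markers 6 on the control and insulin arrays and 2 on each inhibitor array. Of all named genes, the control detected 9292, IWP2 9389, LY294002 8442 and both 8633. PECAM1, CDH5, VWF and ESAM, no longer detected with inhibitors, read only 5.48 to 5.99 on the control. TEK was lower with IWP2, LY294002 and both (-1.85, -1.57 and -3.01), while KDR was higher (1.185, 0.51 and 1.08).

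The fibrillar genes of interstitial connective tissue read far lower with the inhibitors. COL1A1 and COL1A2 encode the chains of type I collagen, the main collagen of most connective tissue, and COL3A1 the single kind of chain of type III collagen, which is found with it in soft tissue. COL1A1 read 11.51 on the control, 9.97 with IWP2, 9.73 with LY294002, 11.76 with insulin and 7.07 with both inhibitors. COL1A2 read 12.68, 10.76, 10.47, 12.54 and 8.19, and COL3A1 13.27, 11.30, 11.24, 13.34 and 8.91, in the same order of arrays. For all 3 genes the control and insulin arrays were high and close to each other, each inhibitor alone stood between, and the array with both was lowest. COL1A1 was 2.90-fold lower than the control with IWP2, 3.42-fold with LY294002 and 21.8-fold with both. COL1A2 was lower by 3.78-fold, 4.62-fold and 22.5-fold, and COL3A1 by 3.91-fold, 4.07-fold and 20.6-fold. With insulin their log2 differences were 0.25, -0.14 and 0.07. A second probe for COL1A2, which was detected on all 5 arrays, gave -1.61 with IWP2, -1.60 with LY294002 and -4.29 with both, and differed in sign with insulin (0.64).

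The chains of type V collagen, which starts and limits the growth of type I fibrils, did not run in parallel. COL5A1 read 11.34 on the control, 9.82 with IWP2, 9.45 with LY294002, 11.28 with insulin and 9.19 with both inhibitors. COL5A2 read 9.68, 8.997, 9.34, 9.53 and 6.66. COL5A1 was already 3.72-fold lower with LY294002 alone and 4.42-fold lower with both. COL5A2 was 1.27-fold lower with LY294002 alone and 8.14-fold lower with both. COL5A2, the next protein-coding gene to COL3A1 in the RefSeq annotation, thus stayed less than 2-fold below the control with either inhibitor alone (1.61-fold lower with IWP2), where COL3A1 did not.

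Fibrillar genes best known from cartilage went the other way or were near the detection limit. COL2A1, the chain of type II collagen, the main fibrillar collagen of cartilage, which is also made by some other embryonic tissues, read 8.77 on the control, 10.17 with IWP2, 9.22 with LY294002, 8.93 with insulin and 10.63 with both. It was 2.64-fold higher than the control with IWP2 and 3.64-fold higher with both, and 1.37-fold higher with LY294002. It was the only fibrillar gene detected on all 5 arrays that read highest with both inhibitors. A second COL2A1 probe was detected only with IWP2 (6.16) and with both inhibitors (5.63), the arrays on which the brighter probe also read highest. COL11A1, a chain of type XI collagen, read 5.99 on the control, 5.61 with IWP2 and 5.35 with insulin and was not detected with LY294002 or with both. COL11A2, another chain of type XI, was detected with IWP2 (6.05) and with both inhibitors (5.87) and not on the control, a bound of at least 1.66-fold and 1.47-fold higher. A second COL11A2 probe was detected only with LY294002 (5.66), so its probes do not give a common pattern. In the cartilage marker list, 4 of 8 genes were detected on the control, 2 with IWP2, 1 with LY294002, 3 with insulin and 2 with both, and SOX9, the regulator of cartilage formation, was detected only on the control (5.82) and insulin (5.86) arrays.

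Type IV collagen genes were lower wherever LY294002 was given. COL4A1 and COL4A2 encode the chains of the type IV trimer found in nearly all basement membranes. COL4A1 read 10.74 on the control, 10.26 with IWP2, 9.58 with LY294002, 11.12 with insulin and 9.68 with both. COL4A2 read 7.28, 7.08, 6.24, 7.76 and 5.79. Both genes were less than 1.5-fold lower with IWP2 (1.40-fold and 1.14-fold), at least 2-fold lower with LY294002 (2.24-fold and 2.05-fold), and higher with insulin (1.30-fold and 1.40-fold). With both inhibitors they were 2.09-fold and 2.80-fold lower.

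COL4A5 and COL4A6, whose chains join in another type IV trimer found in some epithelial and smooth muscle basement membranes, differed more. COL4A5 read 10.97 on the control, 10.40 with IWP2, 9.04 with LY294002, 10.65 with insulin and 9.27 with both. COL4A6 read 10.07, 9.24, 7.86, 11.11 and 8.17. With LY294002 COL4A5 was 3.79-fold and COL4A6 4.63-fold lower, and with both inhibitors 3.25-fold and 3.74-fold. COL4A6 was the 1 collagen gene at least 2-fold higher with insulin (2.05-fold), whereas COL4A5 read lower there (log2 difference -0.32). A second COL4A5 probe gave -1.30 with IWP2, -2.42 with LY294002, -0.68 with insulin and -1.32 with both. By the probes used, adding IWP2 to LY294002 left all 4 type IV genes within 0.45 of the LY294002 array on the log2 scale. The differences were 0.10 (COL4A1), -0.45 (COL4A2), 0.22 (COL4A5) and 0.31 (COL4A6). The second COL4A5 probe, also detected on all 5 arrays, differed there by 1.10, past 2-fold, so the COL4A5 probes disagree on this step.

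Type IV genes lie in head-to-head pairs that share the stretch between their start sites, and the stretches are shown because both members of a pair were detected on all 5 arrays (COL4A1 with COL4A2, COL4A5 with COL4A6) or on none (COL4A3 with COL4A4). The sequences are RefSeq's, from build GRCh38.p14, on the plus strand, and capitals mark the GC box GGGCGG and the CCAAT box CCAAT, or their reverse complements CCGCCC and ATTGG. The first is the whole 126 bases between the start sites of COL4A1 and COL4A2 (chr13:110307158-110307283). The others are the 250 bases before the start of COL4A3 (chr2:227164374-227164623) and before that of COL4A5 (chrX:108439588-108439837), on the side of their partners.
COL4A1 and COL4A2: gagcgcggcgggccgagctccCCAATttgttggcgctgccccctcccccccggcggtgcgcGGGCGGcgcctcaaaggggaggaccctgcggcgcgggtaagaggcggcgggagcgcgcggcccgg
COL4A4 and COL4A3: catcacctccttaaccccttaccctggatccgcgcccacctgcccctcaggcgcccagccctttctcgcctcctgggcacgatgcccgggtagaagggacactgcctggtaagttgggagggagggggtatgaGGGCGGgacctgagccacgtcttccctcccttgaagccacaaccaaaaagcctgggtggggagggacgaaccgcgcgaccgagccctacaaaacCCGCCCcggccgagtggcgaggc
COL4A6 and COL4A5: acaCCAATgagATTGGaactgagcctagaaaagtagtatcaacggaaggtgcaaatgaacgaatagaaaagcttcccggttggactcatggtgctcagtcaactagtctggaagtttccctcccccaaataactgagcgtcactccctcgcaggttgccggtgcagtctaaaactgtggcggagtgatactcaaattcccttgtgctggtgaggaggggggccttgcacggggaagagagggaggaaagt
The COL4A1 and COL4A2 stretch is 80.2% G and C and holds 1 match of each motif. The COL4A5 stretch is 51.2% G and C and holds 2 CCAAT matches and no GC box, and the COL4A3 stretch is 66.4% G and C and holds 2 GC boxes and no CCAAT match. Over the 43 windows of 300 bases (250 before to 50 after a start) given for 31 of the collagen genes, 24 held a GC box (55.81%) and 13 a CCAAT box (30.23%) on either strand, against 44.95% and 34.61% of all 35116 windows. A match describes the letters and is not evidence that a factor binds there.

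Type VI collagen genes, whose chains join in 1 trimer, held the largest difference of any collagen gene. COL6A3 read 10.63 on the control, 7.54 with IWP2, 7.77 with LY294002, 10.79 with insulin and 5.12, not detected, with both. It was 8.50-fold lower with IWP2, 7.24-fold lower with LY294002 and at least 36.0-fold lower with both. COL6A2 read 8.09, 6.84, 5.37, 8.43 and 4.92 in the same order, and was not detected with LY294002 or with both. It was 2.37-fold lower with IWP2, at least 6.07-fold lower with LY294002 and at least 6.18-fold lower with both. COL6A1 read 9.84, 9.24, 9.04, 10.41 and 7.66. COL6A1, which lies near COL6A2 on the same chromosome, was only 1.51-fold lower with IWP2 and 1.74-fold lower with LY294002, and 4.53-fold lower with both. The 3 partner chains thus all read lower on the 3 inhibitor arrays, by different amounts. All 3 read higher with insulin, by 1.12-fold to 1.49-fold. A second COL6A3 probe gave -3.38 with IWP2 and -2.65 with LY294002, and differed in sign with insulin (-0.24 against 0.16), and a second COL6A2 probe was detected only with insulin (6.63).

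The 250 bases before the start sites of COL6A3 (chr2:237414165-237414414, minus strand) and COL6A2 (chr21:46097862-46098111, plus strand), also RefSeq's from GRCh38.p14, are shown as the type VI members that were not detected with both inhibitors, with the same motifs in capitals.
COL6A3: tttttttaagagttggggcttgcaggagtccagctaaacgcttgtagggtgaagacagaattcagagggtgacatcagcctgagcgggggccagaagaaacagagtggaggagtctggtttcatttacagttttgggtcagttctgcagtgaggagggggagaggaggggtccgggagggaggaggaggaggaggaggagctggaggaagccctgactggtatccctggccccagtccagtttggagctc
COL6A2: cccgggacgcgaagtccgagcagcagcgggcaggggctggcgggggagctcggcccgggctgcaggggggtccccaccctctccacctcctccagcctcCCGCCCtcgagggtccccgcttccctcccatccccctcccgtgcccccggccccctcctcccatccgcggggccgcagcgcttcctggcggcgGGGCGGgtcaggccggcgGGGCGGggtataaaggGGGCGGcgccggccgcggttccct
The COL6A2 stretch is 79.6% G and C and holds 4 GC boxes, and the COL6A3 stretch is 56.0% G and C and holds neither motif, so these letters differ between genes whose readings were lower on the same arrays.

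The remaining classes did not move one way. Among the 13 detected other collagens, the median log2 difference with bounds was -0.09 with IWP2, 0.00 with LY294002, 0.03 with insulin and 0.00 with both. Genes detected on neither array count as 0 there. With undetected readings taken as read, the medians were -0.26, 0.14, 0.06 and -0.17. Higher with the inhibitors were COL7A1, the chain of the anchoring fibrils under stratified epithelia, COL13A1, a transmembrane collagen of neuromuscular junctions, and COL16A1, a fibril-associated collagen. COL7A1 read 5.88 on the control, 7.37 with IWP2, 6.72 with LY294002, 5.06 (not detected) with insulin and 6.23 with both. COL13A1 read 6.21, 7.71, 6.998, 6.57 and 6.51, and COL16A1 6.65, 7.24, 7.82, 5.93 and 7.13. COL7A1 was 2.80-fold and COL13A1 2.82-fold higher with IWP2, and COL16A1 was 2.25-fold higher with LY294002. With both inhibitors all 3 lay within 1.40-fold of the control. COL22A1, a collagen of muscle and tendon junctions, read 8.69, 9.57, 8.83, 8.72 and 9.45, higher by 1.84-fold with IWP2 and 1.69-fold with both.

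COL18A1, a basement membrane multiplexin whose end fragment is endostatin, read 10.76 on the control, 9.65 with IWP2, 10.10 with LY294002, 10.81 with insulin and 10.32 with both. It was 2.15-fold lower with IWP2 and 1.35-fold lower with both. COL26A1 read 6.61 on the control, 5.64 with IWP2 and 6.79 with insulin. It was not detected with LY294002 or with both, at least 2.18-fold and 2.22-fold lower. COL21A1, a fibril-associated collagen, was detected only on the control (5.74) and insulin (6.10) arrays. COL23A1, a transmembrane collagen, read 6.21, 5.95, 5.71, 5.29 (not detected) and 5.57, and COL12A1, a fibril-associated collagen of dense connective tissue, was detected only with IWP2 (5.70) and with both (5.46). COL8A2, a short-chain collagen of the corneal Descemet membrane, read 6.86, 6.13, 7.15, 7.08 and 6.24. Its second probe gave the opposite sign with LY294002 (-1.02 against 0.29) and with insulin (-0.87 against 0.21), so no direction is given for it there.

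Type IX collagen, which coats type II fibrils in cartilage, split by chain. COL9A1 was not detected on the control (4.45) or with insulin (5.29) and read 6.41 with IWP2, 5.96 with LY294002 and 7.02 with both. It was at least 2.13-fold higher with IWP2, at least 1.56-fold with LY294002 and at least 3.25-fold with both. COL9A2 (6.20 and 5.77) and COL9A3 (5.36 and 5.51) were detected only on the control and insulin arrays. At the threshold of 0.01, the arrays that detected COL9A1 were thus the ones that did not detect its partner chains. For COL9A3 this rests on the threshold. It read 5.185 with both inhibitors (detection p-value 0.019), a log2 difference of -0.17 from the control. COL9A1 with insulin also lay close to the threshold (detection p-value 0.012). Of the 4 COL9A1 probes, 1 was detected on any array.

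Adding the second inhibitor showed which classes were lower again. From IWP2 alone to both inhibitors, 10 of 21 collagen genes were at least 2-fold lower (47.6%, against 3.45% of all genes) and 0 higher (against 2.96%). The 10 were COL1A1 (log2 difference -2.91), COL1A2 (-2.58), COL3A1 (-2.39), COL5A2 (-2.34), COL6A1 (-1.58), COL4A2 (-1.29), COL13A1 (-1.20), COL7A1 (-1.14), COL4A5 (-1.14) and COL4A6 (-1.07). From LY294002 alone to both, 5 of 19 were lower (26.3%, against 4.37%) and 2 higher (10.5%, against 5.92%). The 5 were COL5A2 (-2.68), COL1A1 (-2.67), COL3A1 (-2.34), COL1A2 (-2.29) and COL6A1 (-1.38), and the 2 were COL2A1 (1.41) and COL9A1 (1.06). None of the 4 type IV genes was among the 5 or the 2 by the probes used. The second COL4A5 probe differed by 1.10 from LY294002 to both and by -0.01 from IWP2 to both. COL4A5 is thus among the 10 by 1 of its probes only. Counting bounds as well, 12 of 25 were lower and 0 higher from IWP2 to both (background 3.86% and 2.73%), with COL6A3 at least 4.24-fold and COL6A2 at least 2.60-fold lower. From LY294002 to both, 6 of 22 were lower and 2 higher (background 4.55% and 5.77%), with COL6A3 at least 4.97-fold lower.

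The difference left after adding up the effects of each inhibitor alone was computed as the step from IWP2 to both minus the step from control to LY294002. For the 18 members detected on those 4 arrays its median was -0.26, against -0.03 over 7271 genes. It was -1 or below in 5 (background 9.63%) and at least 1 in 3 (background 8.33%). The 5 were COL5A2 (-1.995), COL13A1 (-1.99), COL7A1 (-1.98), COL16A1 (-1.29) and COL1A1 (-1.13), and the 3 were COL18A1 (1.33), COL5A1 (1.27) and COL4A6 (1.14). By its second probe COL4A5 would also lie above 1, with steps of -0.01 from IWP2 to both and -2.42 from control to LY294002. The COL4A5 probe used gave 0.79. By the probes used, COL1A2 (-0.37), COL3A1 (-0.37) and COL2A1 (0.01) lay near the sum of the separate effects. A second COL1A2 probe, detected on all 5 arrays, had steps of -2.68 from IWP2 to both and -1.60 from control to LY294002. It would thus lie below -1, so the COL1A2 probes disagree here. With 1 array per condition this value combines the error of 4 arrays.

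**Figure D3:**
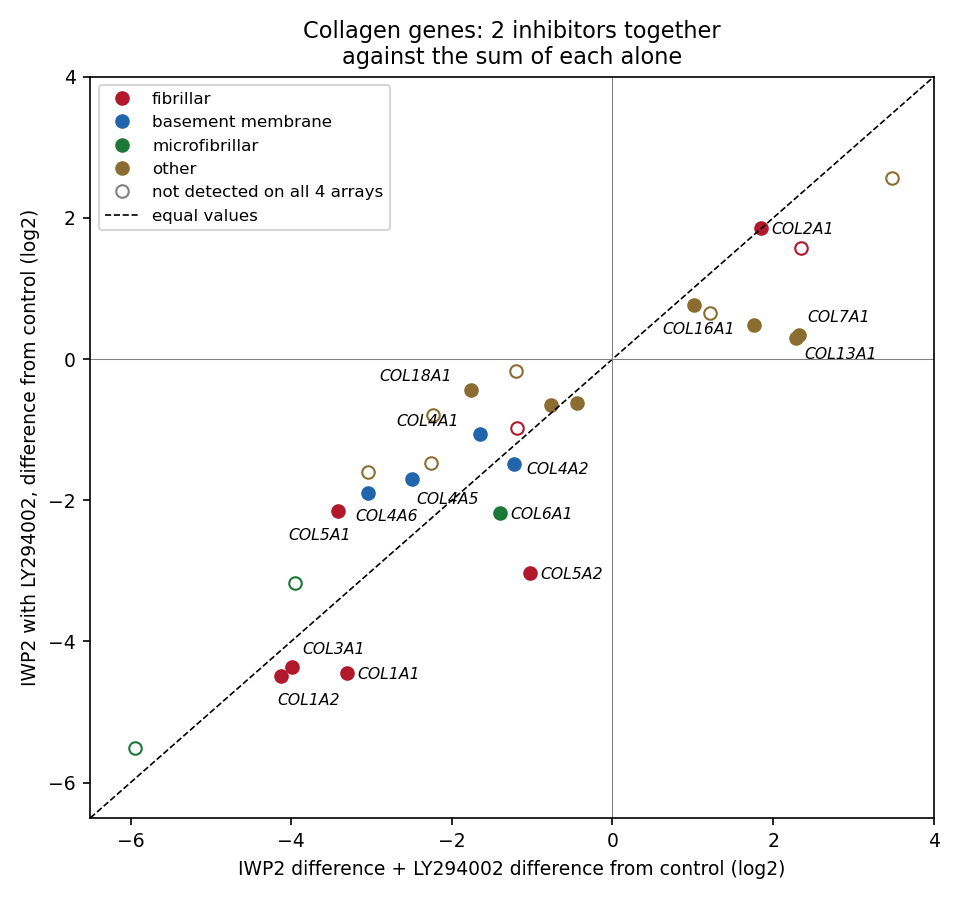
Log2 difference of the array with both inhibitors from the control (vertical axis) against the sum of the IWP2 and LY294002 differences (horizontal axis) for the 28 detected collagen genes, with open points for genes not detected on all 4 arrays and a dashed line where the values are equal. By the probes used, COL5A2 lies below the line and COL5A1 and COL4A6 above it, while COL1A2, COL3A1 and COL2A1 lie near it.

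Genes that make, export and cross-link collagen were mixed, with more of the modifying enzymes lower than higher where LY294002 was given. Of the 16 modification and folding genes detected on both arrays, 8 were lower with LY294002 and 2 higher, 4 lower and 3 higher with IWP2, and 6 lower and 1 higher with both. The shares over all genes were 10.2% lower and 9.02% higher with LY294002, 7.70% and 6.94% with IWP2, and 10.9% and 12.0% with both. With insulin, 1 of 17 was lower and 0 higher (1.88% and 1.71% of all genes). The list's median, with FKBP10, which the inhibitor arrays did not detect, taken as read, was -0.27 with IWP2, -1.07 with LY294002, 0.11 with insulin and -0.73 with both. P3H3, a prolyl 3-hydroxylase family member, differed by -1.75, -2.31 and -2.19 on the IWP2, LY294002 and double-inhibitor arrays, P3H1, a prolyl 3-hydroxylase, by -1.07, -1.23 and -1.97, and P4HA2, a catalytic subunit of prolyl 4-hydroxylase, by -1.36, -1.20 and -2.70. P4HB, that enzyme's other subunit, differed by -1.19, -1.25 and -1.42, and PLOD3, a lysyl hydroxylase, by -0.69, -1.32 and -1.62. The lysyl hydroxylase PLOD2 differed by 0.78, 0.28 and 0.75, and was the 1 gene of the list at least 2-fold lower with insulin (-1.07). TMEM38B, an ion channel of the endoplasmic reticulum, was higher by 1.16, 1.13 and 1.45, and CRTAP, a partner of P3H1, by 1.17 and 1.76 with IWP2 and LY294002 alone and by -0.04 with both.

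Of the export genes detected on both arrays, 3 of 5 were lower with LY294002, 3 of 6 with both inhibitors and 1 of 6 with IWP2. The shares over all genes were 10.2%, 10.9% and 7.70%. With IWP2 1 of 6, KLHL12, a ubiquitin ligase adaptor for large vesicles, was higher (1.10), against 6.94% of all genes. SEC13, a coat protein of export vesicles, differed by -1.50 with IWP2, -1.63 with LY294002 and -2.15 with both, and CREB3L2, a transcription factor for secretory genes, by -0.34, -1.82 and -1.02. SEC24D, another coat protein, was higher by 1.22 with insulin. Among 7 detected processing and cross-linking genes, LOX, the lysyl oxidase that cross-links fibrils, read 7.96 on the control, 6.23 with IWP2 and 8.43 with insulin and was not detected with LY294002 or with both. LOX was at least 5.57-fold and at least 5.68-fold lower there. PCOLCE, which speeds the trimming of procollagen, differed by -1.66 with IWP2, -0.28 with LY294002 and -2.37 with both. LOXL4, a lysyl oxidase-like gene, went the other way, by 1.24, 0.37 and 1.26. ADAMTS3, a procollagen peptidase, was not detected on the control and was at least 2.71-fold higher with both.

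Of the collagen receptors, DDR1 differed by -0.32, -0.93 and -0.95 on the IWP2, LY294002 and double-inhibitor arrays. DDR2, a receptor for fibrillar collagen, was detected only on the control (6.03) and insulin (5.75) arrays. ITGB1, the beta chain of collagen-binding integrins, was higher by 1.08 with both inhibitors, the 1 receptor gene past 2-fold from the control. That is 1 of the 4 receptor genes detected on both arrays, against 12.0% of all genes. In the breakdown list, which holds matrix proteases and their inhibitors, 5 of 12 measured genes were detected. TIMP1 (-1.54) and TIMP2 (-1.17), both protease inhibitors, were at least 2-fold lower with both inhibitors and with neither alone. They are 2 of the 4 genes of that list detected on the control and with both, against 10.9% of all genes.

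**Figure D4:**
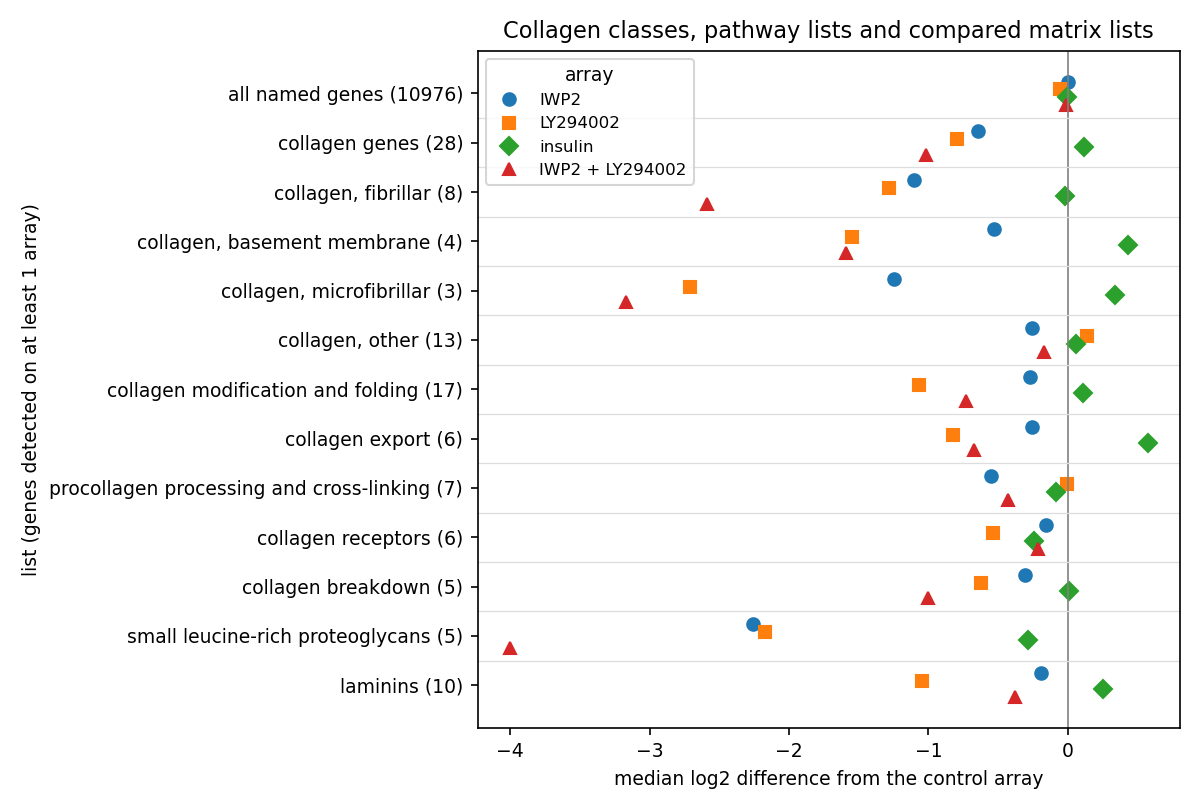
Median log2 difference from the control array (horizontal axis) of collagen genes, their classes, the pathway lists and the compared matrix lists (vertical axis, with the number of genes detected on at least 1 array), with 1 symbol per treatment. Readings that were not detected are plotted as read, and with both inhibitors they set the points of the small leucine-rich proteoglycans and the microfibrillar class. The medians of these lists with bounds are -3.06 and -2.63. Both are lower limits in size, so the differences may be larger. The fibrillar median is -2.58.

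Other matrix genes compared were the small leucine-rich proteoglycans, which bind collagen fibrils, and the laminins, the other main proteins of basement membranes. All 5 detected proteoglycans (DCN, BGN, LUM, FMOD and ECM2) were detected on the control and insulin arrays and none with both inhibitors. Of all 9292 named genes detected on the control, 1434 were not detected with both inhibitors. Their median differences, with bounds in place of undetected readings, were -2.26 with IWP2, -1.71 with LY294002, -0.29 with insulin and -3.06 with both, the last from bounds alone. Of the laminins detected on both arrays, 1 of 6 was lower with IWP2, 4 of 5 with LY294002 and 2 of 6 with both (7.70%, 10.2% and 10.9% of all genes), and none was at least 2-fold higher. Their medians with bounds were -0.19 with IWP2, -0.45 with LY294002, 0.25 with insulin and -0.20 with both, and LAMA4, which was not detected on the control, was at least 8.80-fold, 5.21-fold and 6.62-fold higher on the 3 inhibitor arrays. The LY294002 array thus held the lowest median for laminins as it held the dimmest reading for 3 of the 4 type IV collagens. It held the dimmest reading for 21.6% of all genes detected on at least 4 arrays.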

How the data were processed

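Expression was measured with 1 Illumina BeadChip per condition. The authors deposited an intensity and a detection p-value for each probe and array, not normalized per the file headers and values. The detection p-values in the deposited file move in steps that match 770 negative controls. The authors also deposited a value table, on a log2 scale judging from its values. Its columns share nearly 1 distribution (medians 5.01 to 5.02), and its background step and centring are not given in the sources used here. It served as an alternative.

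The intensities were corrected with the normexp model from the detection p-values, given an offset of 16, quantile-normalized across arrays and log2-transformed (neqc, limma 3.58.1, R 4.3.3). The offset makes fold changes of dim genes smaller. Later steps used Python 3.11.15, numpy 2.4.6 and pandas 2.3.3. Probes were named from the platform annotation: 30106 had 1 gene symbol, 8 several and 17185 none in that table. Symbols were updated by gene ID to RefSeq, where 30067 matched. A gene was represented by its probe with the highest mean over the arrays, and of the 43 collagen genes 18 had several probes.

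With 1 array per group no spread, p-value or interval was computed, and the number of arrays limits the precision. For a bound, the detecting array was set against the lowest signal that passed detection on the other array, or against the gene's reading there if higher. Every detected collagen gene is named, and of other lists up to 4 genes with the largest differences and 2 bounds per comparison with the control. POU5F1, NANOG and SOX2 were looked up after the data were seen. The members and lists were chosen with earlier results of these data known. The code was tested on simulated arrays.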

Additional observations from a re-analysis of the deposited data

Results flagged for a closer look

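For 4 collagen genes an inhibitor went with opposite directions, of at least 1.5-fold each way, depending on whether the other inhibitor was present. The difference between these directions was not tested, as each rests on 4 arrays with 1 per condition. COL7A1 was higher by 0.84 with LY294002 alone and lower with LY294002 on top of IWP2 (log2 difference -1.14), a gap of -1.98. COL13A1 was likewise higher by 0.79 and then lower (-1.20), a gap of -1.99. COL16A1 was higher by 0.60 with IWP2 alone and lower with IWP2 on top of LY294002 (-0.69), a gap of -1.29. COL18A1 was lower with LY294002 alone (-0.66) and higher by 0.67 on top of IWP2, a gap of 1.33. Groups of 1 array allow no search for outlying arrays.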

How the results depend on the processing

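No paired analysis was possible because each condition has 1 array, and for the same reason no array could be left out of a comparison. No value changed sign among the collagen differences past 2-fold: all 278 recomputed values of the 32 such differences kept their direction, and 262 stayed past 2-fold. Some of the 278 could not change. A detection threshold of 0.05 and no detection filter leave the difference of a single gene as it was. The mean of detected probes does the same where a gene has 1 detected probe. With no replicates, a value was taken as moved at a change of over 0.58 on the log2 scale (1.5-fold), and a count at over 1.5 times. Normalizing without the LY294002 array, an alternative added after seeing the data, cyclic loess, and counting COL7A1, COL15A1 and COL18A1 with the basement membrane class moved no count or class median against the control. Without background correction, which keeps the background in every value, the genes higher with IWP2, LY294002 and insulin came to 1, 0 and 0, and those lower from IWP2 to both to 6, higher from LY294002 to both to 1, and below in the 2 by 2 difference to 3. The microfibrillar median, -2.71 with LY294002 and -3.17 with both when undetected readings are taken as read, was then -1.45 with LY294002 and -1.78 with both. With an offset of 50 these medians were -2.02 and -2.25, 0 genes were higher with LY294002, 6 lower from IWP2 to both and 1 higher from LY294002 to both. The 75th percentile scaling gave 0 higher with LY294002, and the deposited values left none higher with insulin (0 genes). A detection threshold of 0.05 and the mean of detected probes put the microfibrillar median with LY294002 at -1.76 and -1.79, and the latter put it at -2.18 with both. Without a detection filter, which adds the undetected members, 5 genes were higher with IWP2, 2 with LY294002, 3 with both and 6 above in the 2 by 2 difference. The median of all collagens with LY294002 was then -0.20. The fibrillar medians were -0.39, -0.34 and -0.98 for IWP2, LY294002 and both, and the microfibrillar ones -0.60, -0.80 and -2.18. At a 1.5-fold threshold, 5 were higher and 12 lower with IWP2, 3 higher with LY294002, 2 lower with insulin, 2 higher with both, 2 higher from IWP2 to both and 5 above in the 2 by 2 difference. Among 245 recomputed medians of the pathway and matrix lists, 13 moved and 5 took another sign. Beyond what each alternative changes by construction, the cause of these shifts was not tested. Genes whose signal lies near the background, such as COL11A1, COL11A2, COL12A1 and COL9A3, are limited to bounds, or to no fold, where an array did not detect them.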

Other observations

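The probe used for LAIR1, a collagen receptor of blood cells, read between 14.03 and 14.43 on the 5 arrays, close to the highest normalized value of any probe (14.48), and its differences from the control lay between -0.40 and 0.00. Whether this signal comes from LAIR1 RNA was not tested.

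Agreement between probes of the same gene was counted for the differences from the control only. Of the 13 gene and comparison pairs in which at least 2 probes of a collagen gene were detected on both arrays, the probes had the same sign in 9 and opposite signs in 4. The 4 were COL1A2 and COL6A3 with insulin and COL8A2 with LY294002 and with insulin. The median gap between probes was 0.40 on the log2 scale and the largest 1.31 (COL8A2 with LY294002).

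Among the laminins, LAMA5 had log2 differences of -1.03 with IWP2, -1.47 with LY294002 and -1.73 with both inhibitors, and LAMC1 of -0.21, -1.10 and -0.44.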
